A study of Danio rerio with 32 samples.

Results

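Retene is an alkylated polycyclic aromatic hydrocarbon, and the comparison described here is the one at its lowest tested concentrations: 8 pools of zebrafish larvae exposed to 0.205 or 0.512 µM retene (4 pools each, together called low retene) against 4 DMSO vehicle control pools. These 12 pools were taken by their labels from a series of 32, which also holds higher concentrations from 1.28 to 50 µM, and all 22686 genes of the deposited table were tested. All pools were of the Tropical 5D strain, with 9 whole larvae per pool. Exposure to retene or to DMSO alone began at 6 hours post fertilization (hpf), after removal of the chorion at 4 hpf, and ended with collection at 48 hpf. Larvae with visible malformations were not taken, so the pools hold fish of normal appearance only. A pool averages every tissue of the larva, and fewer cells of a type and less RNA per cell cannot be told apart in it.

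Retene is known as an agonist of the aryl hydrocarbon receptor (AHR), a ligand-activated transcription factor. Upon binding a ligand the AHR moves to the nucleus, pairs with ARNT and binds xenobiotic response elements near its target genes. The best known target is cyp1a, a phase I cytochrome P450 that oxidizes aromatic hydrocarbons and is widely used as a biomarker of exposure. Other targets encode further CYP1 enzymes, conjugating enzymes, and the repressors ahrra, ahrrb and tiparp, which limit the response. In zebrafish the receptor that mediates most of the response to such compounds is Ahr2.

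The 12 pools had between 7957827 and 8656870 reads on genes, with medians of 8155664 in the control, 8165198 at 0.205 µM and 8214527 at 0.512 µM, and size factors from 0.954 to 1.08. One library stood apart. Control replicate 2 lay at −31.76 on the first principal component of the 12 pools (31.0% of the variance), and the other 11 pools lay between −4.87 and 12.76. Its mean correlation with the other pools was 0.983, and the other pools had at least 0.991. It was the highest or the lowest of the 12 pools for 35.7% of all genes, against 11.7% to 20.6% for each other pool. Because this pool is 1 of the 4 behind every contrast with the control, the main counts and the list medians are also given without it.

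With limma on the deposited log2-scale values, no gene was called in low retene minus control at an adjusted p under 0.05 (0 of 22686, 0.0%), and the smallest adjusted p was 0.621. At an unadjusted p under 0.05 there were 1802 genes (7.94%), with 732 higher (3.23%) and 1070 lower (4.72%) in low retene. The voom form of limma, run on the recovered reads, likewise called 0 genes, with 1821 at an unadjusted p under 0.05 (8.03%). Without control replicate 2 the number at an unadjusted p under 0.05 was 685 (3.02%), with 395 higher (1.74%) and 290 lower (1.28%). On the deposited scale the median absolute difference over all genes was 0.057 and the median standard error 0.071. The 95% interval of a typical gene thus reached 0.144 to either side of its estimate on that scale. The scale compresses genes with few reads, so this is not the precision of a log2 fold change. The median standard error was 0.169 on log2(normalized count + 0.5) and 0.167 with voom. Only cyp1a differed by more than 1 on the deposited scale.

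**Figure D1:**
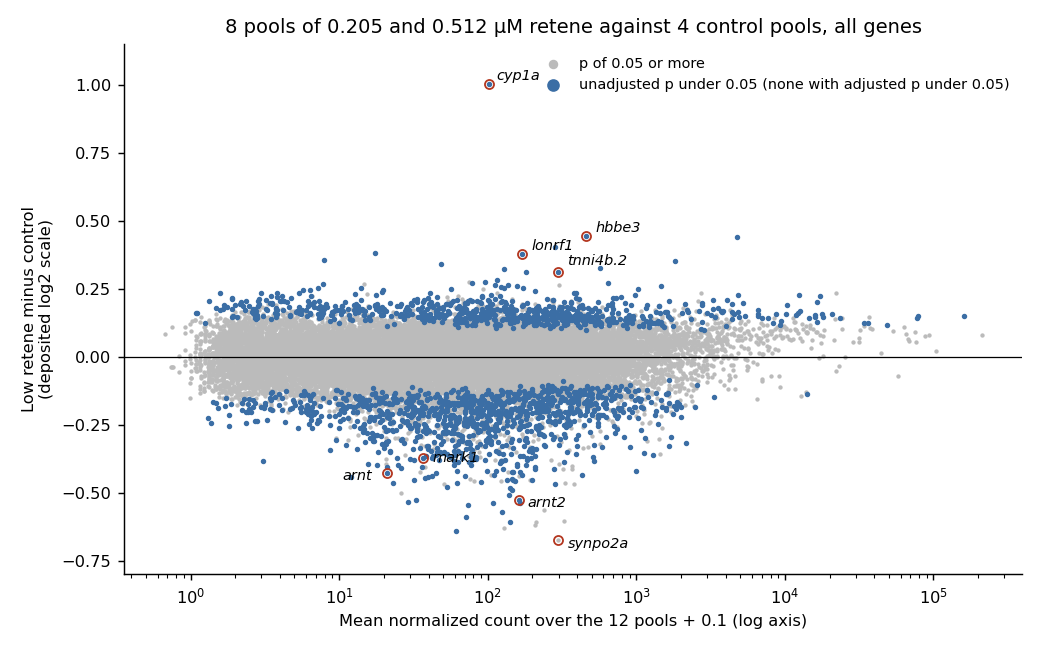
Difference between the 8 low retene pools and the 4 control pools on the deposited log2 scale (vertical axis) against the mean normalized count over the 12 pools (horizontal log axis), 1 point per gene, with genes at an unadjusted p under 0.05 in blue. cyp1a stands alone above 1, and the points under −0.5 are lower in low retene than in a control mean that includes control replicate 2.

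cyp1a had the largest difference and the smallest p of all genes. In normalized counts (reads divided by the size factor of the pool), the control pools had 36.5, 20.0, 25.4 and 22.7, the 0.205 µM pools 72.3, 154, 31.5 and 68.7, and the 0.512 µM pools 341, 260.5, 74.7 and 113. All 4 pools at 0.512 µM and 3 of the 4 at 0.205 µM lay above every control pool, and replicate 3 at 0.205 µM lay inside the control range. The 8 low retene pools averaged 139.5 ± 108 and the 4 control pools 26.1 ± 7.23 (SD), a ratio of 5.34. On the deposited scale, which compresses genes with few reads, the difference was 1.00 (SE 0.209, 95% interval 0.58 to 1.43, n = 8 and 4), with a limma adjusted p of 0.621. An exact two-sided permutation test of the 12 pools gave p = 0.0182, where 0.00202 is the smallest p that 8 against 4 pools allow. Among the 26 genes tested this way, some picked for a small limma p, 12 had an unadjusted exact p under 0.05. On the scale of log2(normalized count + 0.5), which does not compress low counts, cyp1a had a limma difference of 2.06 (SE 0.301, adjusted p = 0.00169). It was then the 1 gene called (0.00441% of genes). Over all the alternatives its difference lay between 0.88 and 2.07 and its adjusted p between 0.00169 and 1. With control replicate 2 left out, the difference was 0.96, and the limma adjusted p was at the upper end of that range of adjusted p. With voom, which also works on log2 counts, the difference was 2.07 and the adjusted p 0.604. For low retene minus control, cyp1a was thus called under 1 of the alternatives only. At 0.512 µM alone it was called under several, as given below.

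**Figure D2:**
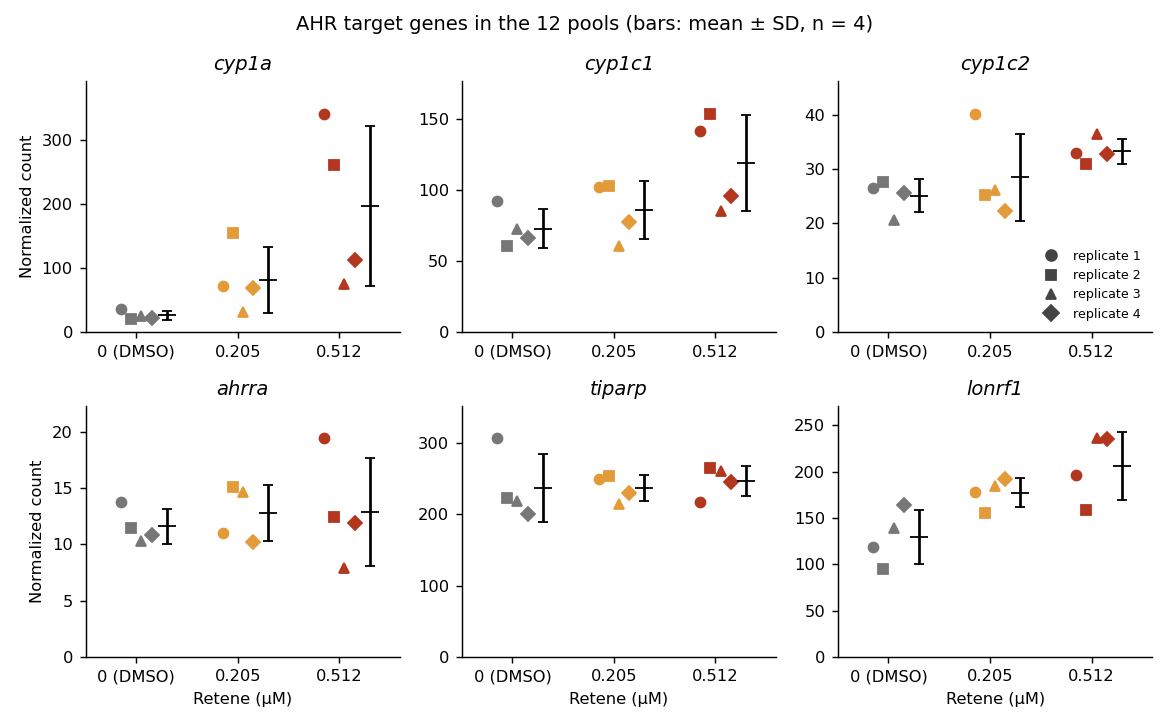
Normalized counts of 6 AHR target genes in the 12 pools by retene concentration, with the replicate number as the symbol and the mean ± SD of 4 pools as black bars. cyp1a reached 341 at 0.512 µM where no control pool exceeded 36.5, whereas the values of ahrra and tiparp in low retene overlapped those of the control.

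The paralogs cyp1c1 and cyp1c2, which encode CYP1 enzymes of fish, differed less. cyp1c1 had 92.7, 61.0, 72.4 and 66.1 normalized counts in the control, 102, 103, 60.8 and 78.0 at 0.205 µM, and 142, 154, 85.5 and 96.2 at 0.512 µM. Replicates 1 and 2 at 0.512 µM, the pools with the most cyp1a, were also those with the most cyp1c1, but the groups overlapped. The difference was 0.25 (SE 0.138, 95% interval −0.03 to 0.53), with a limma adjusted p of 0.644. cyp1c2 had from 22.3 to 40.2 normalized counts in low retene (median 31.9), against 26.6, 27.6, 20.7 and 25.7 in the control, a difference of 0.10 (95% interval −0.12 to 0.32). cyp1d1, a family member not known to follow the AHR, averaged 129 ± 9.07 in low retene and 129 ± 17.6 in the control (SD), a difference of −0.00 (95% interval −0.13 to 0.13). cyp1b1 was not analysed here.

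The AHR repressors gave no measurable difference on the deposited scale. ahrra ranged from 7.87 to 19.4 normalized counts in low retene (median 12.1) and had 13.8, 11.4, 10.3 and 10.9 in the control, with a difference of 0.03 (95% interval −0.13 to 0.19). ahrrb ranged from 2.07 to 30.7 in low retene (median 13.2) and had 19.7, 13.3, 7.52 and 7.89 in the control. Its difference of 0.02 (95% interval −0.16 to 0.21) changed sign with the pools left out. tiparp, a member of the poly-ADP-ribose polymerase family that modifies the receptor, averaged 242 ± 19.0 in low retene and 237 ± 47.4 in the control (SD). Its difference was 0.03 (95% interval −0.10 to 0.17), and 0.015 without control replicate 2. Both tiparp and ahrra had their limma adjusted p above 0.9. These intervals bound the differences of the 3 genes on the deposited scale only and do not show that they were equal. That scale compresses genes with few reads, such as ahrra and ahrrb. Larger changes in their counts than the intervals seem to allow are therefore not excluded.

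The receptor and its partners had their highest values in control replicate 2. ahr2 ranged from 489 to 625 normalized counts in low retene (median 570.0), against 591, 877, 561 and 623 in the control, so 1 control pool lay far above all others. The difference was −0.17 (limma unadjusted p = 0.0398, adjusted p = 0.623), and −0.05 without that pool. arnt, the usual partner of the AHR, ranged from 6.20 to 31.6 in low retene (median 11.8), against 28.6, 61.0, 30.1 and 22.7 in the control. Of the 8 low retene pools, 7 lay below every control pool. The difference of −0.43 (SE 0.123, limma unadjusted p = 0.00146, adjusted p = 0.621) was −0.31 without control replicate 2 (unadjusted p = 0.0215). arnt2, a neural relative of arnt, ranged from 71.3 to 178 in low retene and had 202, 451, 159 and 126 in the control, with a difference of −0.53 that was −0.25 without control replicate 2. Of the 19 genes listed as AHR receptors and partners, 3 were lower and 0 higher at an unadjusted p under 0.05, beside 4.72% lower and 3.23% higher of all genes, and the median was −0.053. Leaving out control replicate 2, 1 was lower, beside 1.28% of all genes, and the median was −0.006.

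Among other genes listed as AHR targets, lonrf1, a LON and RING domain gene of presumed ubiquitin ligase function, differed most after cyp1a. Its normalized counts were 118, 95.3, 139 and 164 in the control, 178, 155, 184.5 and 192 at 0.205 µM, and 196, 158, 236 and 235.0 at 0.512 µM. Of the 8 low retene pools 6 lay above every control pool, and the other 2 lay under control replicate 4 only. The difference was 0.38 (SE 0.093, 95% interval 0.19 to 0.57, limma unadjusted p = 0.000277, adjusted p = 0.621) and 0.30 without control replicate 2. nqo1, a quinone reductase shared by the AHR and Nrf2 pathways, ranged from 395 to 515 in low retene (median 420.0) and had 385, 308, 369 and 425 in the control. Its difference was 0.19 (limma unadjusted p = 0.0315, adjusted p = 0.621), and 0.12 without control replicate 2.

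The remaining target genes overlapped between the groups. sult6b1, a sulfotransferase, averaged 248 ± 27.7 normalized counts in low retene and 222 ± 23.5 in the control (SD), with a difference of 0.12 (95% interval −0.05 to 0.28) that was 0.064 without control replicate 2. gstp1, a glutathione transferase that the annotation names gstp1.2, ranged from 2142 to 3115 in low retene and had 2261, 2121, 2677 and 2145 in the control, a difference of 0.17 (95% interval −0.02 to 0.35). Reads may be divided between it and its neighboring copy. nfe2l2b, a fish Nrf2 paralog, ranged from 13.6 to 29.7 in low retene against 14.3 to 21.6 in the control. The circadian repressor per2, the connective tissue growth factor paralog ccn2b and the forkhead factor foxq1a had differences of 0.07, 0.06 and 0.15. wfikkn1, which encodes a protease inhibitor domain protein that binds TGF-β family ligands, was near the detection limit, with 1.86 to 9.30 normalized counts in low retene and 3.81 to 6.58 in the control, and fgf7, a growth factor of epithelia, had 8.85 to 25.2 in low retene and 8.88 to 20.0 in the control. The limma adjusted p was above 0.6 for each of these genes.

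Listed together, the AHR targets leaned to one side. Of the 32 measured genes of the list, 25 had a positive difference and 7 a negative one, with a median of 0.053 beside −0.00 over all 22686 genes, of which 11330 were positive. At an unadjusted p under 0.05, 3 were higher and 0 lower, beside 3.23% higher and 4.72% lower of all genes, and 2 were higher without control replicate 2 (1.74% of all genes). The mean of the list, centered over the 12 pools, was −0.036, −0.095, −0.051 and −0.079 in the control pools, 0.025, 0.077, 0.020 and −0.053 in the 0.205 µM pools, and 0.092, 0.087, −0.007 and 0.021 in the 0.512 µM pools. Of the 8 low retene pools 7 lay above every control pool, and replicate 4 at 0.205 µM lay within them. Without cyp1a the median over the other 31 genes was 0.052, and again 7 of 8 pools lay above the control. Without control replicate 2 the median of the whole list was 0.050, and 27 of the 32 were positive. Some lists outside the AHR pathway also leaned this way without that pool, such as ribosomal proteins with 74 of 89 positive and a median of 0.066. A second list of 83 genes, an AHR-related module of a network that was published earlier and built on other samples, had a median of 0.024 over 82 measured genes, 50 of them positive, with 3 higher and 4 lower at an unadjusted p under 0.05. Its median was 0.012 without control replicate 2, with 3 higher and 1 lower. Both AHR lists were chosen with earlier results of these data known. The list of AHR targets holds genes, cyb5a among them, that the study called against these same control pools at higher concentrations. Its lean against the control is therefore not independent of how it was chosen. The 189 genes higher at 50 than at 1.28 µM, chosen without these 12 pools, had a median of 0.025, and 0.001 without control replicate 2.

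The 6 genes with the smallest p on the higher side were cyp1a, tnni4b.2, sgk2b, cdpf1, lonrf1 and the unnamed gene with NCBI identifier 108180184, a long noncoding RNA in the annotation. tnni4b.2, a troponin I of muscle, had 243, 218, 232 and 279 normalized counts in the control, 319, 263, 328 and 255 at 0.205 µM, and 364.5, 324.5, 347 and 397 at 0.512 µM. All 4 pools at 0.512 µM and 2 at 0.205 µM lay above every control pool, and the difference was 0.31 (SE 0.069, limma adjusted p = 0.621). Its tandem copies tnni4b.1 and tnni4b.3 differed by −0.03 and 0.10, and reads can be shared among the copies. sgk2b, a serum and glucocorticoid regulated kinase, ranged from 109 to 143 in low retene (median 122), against 87.7, 63.8, 107 and 106 in the control. All 8 pools lay above the control, with a difference of 0.26 that was 0.18 without control replicate 2. cdpf1, a gene of unclear function, ranged from 70.3 to 105 in low retene (median 88.0) and had 63.1, 56.2, 64.0 and 58.2 in the control, again with no overlap and a difference of 0.27. The noncoding RNA ranged from 18.1 to 26.2 in low retene (median 24.5), against 10.8, 11.4, 10.3 and 17.8 in the control.

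**Figure D3:**
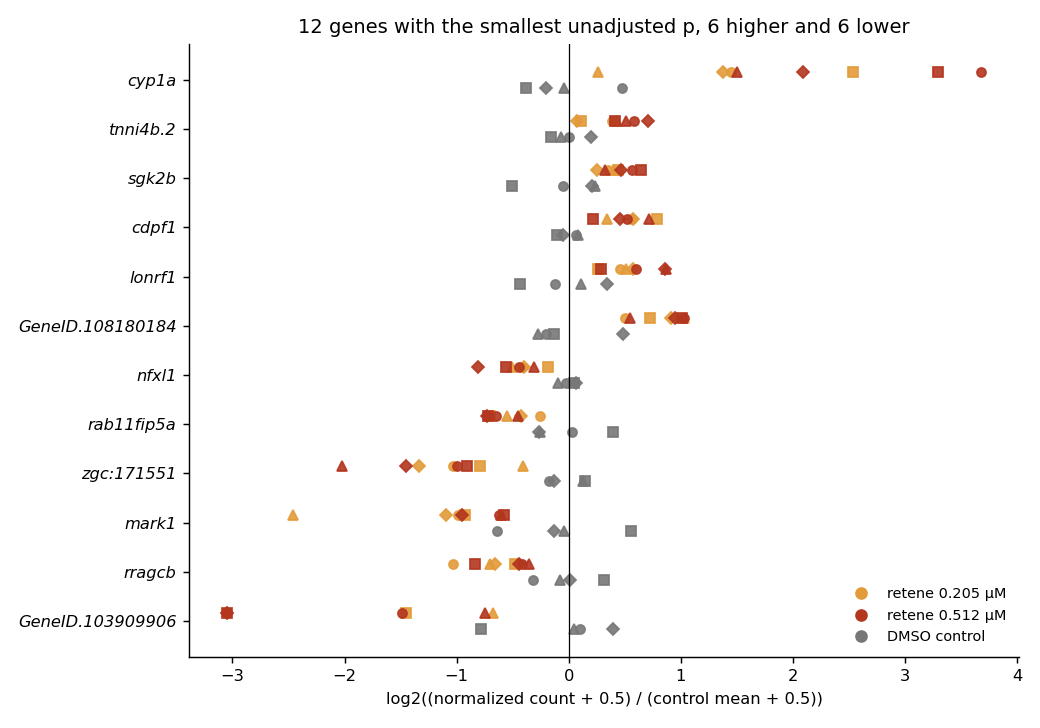
The 12 genes with the smallest unadjusted p, shown as log2 of the normalized count plus 0.5 relative to the control mean, with the low retene pools in the upper row of each gene and the control pools in the lower row (circle, square, triangle and diamond for replicates 1 to 4). None of these genes passed adjustment on the deposited scale, and the spread of cyp1a among the low retene pools is wider than that of the other 5 genes on the higher side.

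The 6 genes on the lower side were nfxl1, rab11fip5a, zgc:171551, mark1, rragcb and the gene with NCBI identifier 103909906. nfxl1, a zinc finger protein related to NFX1, ranged from 68.4 to 106 normalized counts in low retene (median 89.4), against 118, 125, 113 and 126 in the control. No pools overlapped, and the difference was −0.26 (SE 0.060, limma unadjusted p = 0.000141, adjusted p = 0.621). It was −0.25 without control replicate 2. zgc:171551 ranged from 7.87 to 25.2 in low retene (median 16.3) and had 29.6, 37.2, 36.7 and 30.6 in the control, a ratio of 0.475 with no overlap. rragcb, a Rag GTPase subunit of the amino acid sensing branch of mTORC1, ranged from 34.2 to 55.1 in low retene and from 56.2 to 87.6 in the control, with a difference of −0.28. rab11fip5a, an effector of Rab11 in vesicle recycling, and mark1, a microtubule affinity regulating kinase, differed by −0.31 and −0.37, and control replicate 2 had the highest value of both (165 and 80.0). The unnamed gene had at most 2.10 normalized counts in any low retene pool and 1.91 to 4.93 in the control, so it rests on a few reads.

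The groups did not overlap for 156 genes (0.688% of 22686), 72 with all 8 low retene pools above the control (0.317%) and 84 with all below (0.37%). Examples were chosen after their values were seen. Above the control lay tex47, with 114 to 159 normalized counts in low retene and 90.7, 99.1, 110.0 and 95.7 in the control, prdx3, a mitochondrial peroxiredoxin, with 369 to 428 against 313 to 365, and the retromer subunit vps29, with 494 to 558 against 416 to 473. Below the control lay rnf13, a RING finger protein of endosomes, with 59.4 to 82.6 in low retene and 90.3 to 99.1 in the control, and naalad2, a peptidase, with 101 to 129 against 135 to 158. efnb2a, an arterial ephrin, ranged from 136 to 188 in low retene and had 229.7, 316, 209.7 and 232 in the control, and its difference of −0.37 was −0.28 without control replicate 2. tbx5a, a transcription factor of heart and pectoral fin, ranged from 17.6 to 35.3 in low retene and had 36.5, 72.4, 42.3 and 36.5 in the control, with −0.30 and −0.19. None of these genes had a limma adjusted p under 0.6. With 1 pool left out the number of genes without overlap ranged from 184 to 532, since fewer pools leave fewer chances to overlap.

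Beyond cyp1a, differences larger than 0.5 on the deposited scale were all negative. That scale compresses genes with few reads. Over the alternatives, some on log2 counts, named genes passed 0.5 in both directions, such as lonrf1 at up to 0.586 and rragcb at down to −0.597. The 18 genes lower by more than 0.5 on the deposited scale had their highest value of the 12 pools in control replicate 2, in 18 of 18 cases. Their median difference was −0.57, and −0.23 without that pool. trrap, a large scaffold of histone acetyltransferase complexes, had at most 51.1 normalized counts in low retene (median 38.8), against 51.3, 397, 50.8 and 41.4 in the control. mef2ca, a transcription factor of muscle and craniofacial cells, ranged from 164 to 316 in low retene and had 373, 996, 316 and 229.9 in the control. synpo2a, a muscle actin-binding protein, ranged from 141 to 279 in low retene and had 277, 1119, 265 and 231 in the control. At an unadjusted p under 0.05 there were 11 of these 18 genes, and 0 without control replicate 2 (limma), beside 7.94% and 3.02% of all genes. The 18 were picked by their difference in this same contrast. That choice favors small p-values with control replicate 2 in, their loss without it, and a high value in that pool.

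The 2 concentrations were also compared with each other, which uses no control pool. limma called 0 genes in 0.512 minus 0.205 µM (0.0%), with a smallest adjusted p of 0.462, 1203 genes at an unadjusted p under 0.05 (5.3%) and 0 calls by voom (1246 at an unadjusted p under 0.05, 5.49%). The smallest p belonged to trpc4apb, which encodes a TRPC4-associated protein. It had 185, 196, 204 and 182 normalized counts at 0.512 µM and 145, 148, 155 and 131 at 0.205 µM, with 154 to 175 in the control. All 4 pools at 0.512 µM lay above the control, and at 0.205 µM 3 lay below it and replicate 3 within it. hsp70l, an inducible heat shock protein, had 87.5, 93.0, 61.0 and 77.3 at 0.512 µM and 42.2, 55.4, 62.9 and 44.6 at 0.205 µM, a difference of 0.31 (limma adjusted p = 0.889). For cyp1a the difference between the concentrations was 0.73 (limma unadjusted p = 0.00478, adjusted p = 0.907), with the 2 groups overlapping. lonrf1, cyp1c1 and cyp1c2 differed by 0.14, 0.26 and 0.09 in the same direction.

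Each concentration against the control gave the following, with the control pools shared. At 0.512 µM limma called 0 genes (0.0%), with 1434 at an unadjusted p under 0.05 (6.32%) and 0 by voom (1418, 6.25%). cyp1a came nearest, with a difference of 1.37 and an adjusted p of 0.0583, followed by tnni4b.2 with 0.43 and an adjusted p of 0.0711. On the scale of log2(normalized count + 0.5), limma called cyp1a at 0.512 µM, with a difference of 2.68 and an adjusted p of 0.000145. cyp1a was also called at 0.512 µM with quantile normalization, with pool weights and with the replicate block. The same held with replicate 2 or 3 of 0.205 µM, or replicate 3 or 4 of 0.512 µM, left out. The study's own DESeq2 test, a count model not run here, called several genes at 0.512 µM, cyp1a among them. It called none at 0.205 µM. At 0.205 µM limma also called 0 genes (0.0%), with 1687 at an unadjusted p under 0.05 (7.44%) and 0 by voom (1685, 7.43%), and cyp1a had a difference of 0.64. Leaving out control replicate 2, 685 genes at 0.512 µM (3.02%) and 896 at 0.205 µM (3.95%) had an unadjusted p under 0.05, and the smallest adjusted p at 0.512 µM was 0.303. Leaving out single pools moved these counts between 0 and 2 at 0.512 µM and between 0 and 1 at 0.205 µM. Without replicate 3 of 0.512 µM, cyp1a and mylpfb, a fast muscle myosin light chain, were called with adjusted p of 0.00333 and 0.0136. Without replicate 3 of 0.205 µM, irg1l was called at that concentration with an adjusted p of 0.0295. irg1l, whose mammalian relative makes itaconate in macrophages, had 48.3, 20.0, 17.87 and 26.6 normalized counts in the control, 95.5, 152, 19.9 and 64.1 at 0.205 µM, and 43.7, 51.7, 15.7 and 23.8 at 0.512 µM. Its left-out pool at 0.205 µM was thus the one within the control range. pmelb, a melanosome matrix gene, had 1022, 994, 1167 and 1059.7 in the control, 1131, 967, 953 and 988 at 0.205 µM, and 839.7, 829, 917 and 897 at 0.512 µM, with all 4 pools at 0.512 µM below every other pool and a limma adjusted p of 0.37 for 0.512 µM.

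Gene groups outside the AHR pathway with the largest medians had smaller ones without control replicate 2. Of 89 cytosolic ribosomal protein genes 80 had a positive difference, with a median of 0.119, and 28 were higher and 1 lower at an unadjusted p under 0.05, beside 3.23% and 4.72% of all genes. With control replicate 2 left out, the median was 0.066 and 74 of the 89 were positive. At an unadjusted p under 0.05, 2 were then higher and 1 lower, beside 1.74% and 1.28% of all genes. The mean of this list was −0.217 in control replicate 2, −0.025 to −0.011 in the other control pools, and −0.168 to 0.202 in low retene, a range that covers the other control pools. Of 107 genes of the respiratory chain, which carries out mitochondrial electron transport, 97 were positive with a median of 0.093 and 19 higher at an unadjusted p under 0.05. Without control replicate 2, 86 were positive with a median of 0.047, and 3 were higher, beside 1.74% of all genes. Lens crystallins, the structural proteins of the lens, had a median of 0.069 over 44 genes with 0 at an unadjusted p under 0.05. Of these 38 were positive, and without that pool 30 were, with a median of 0.035. The 51 proteasome genes had 0.069 with 45 positive, and without control replicate 2 they had 0.033 with 36 positive.

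**Figure D4:**
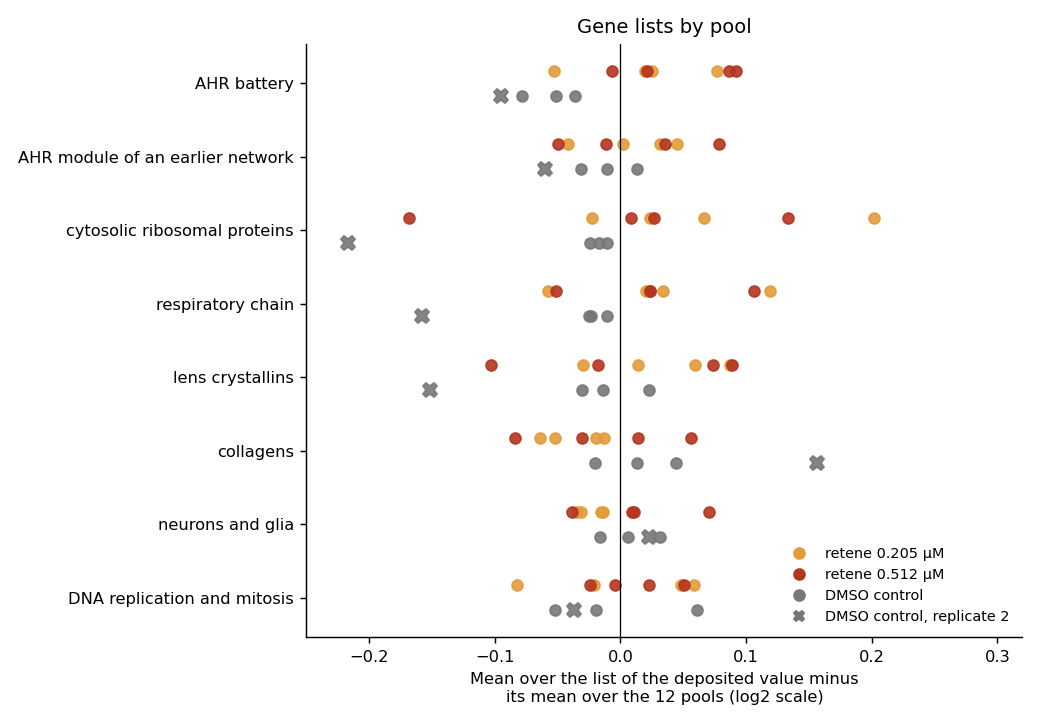
Mean of each gene list in each of the 12 pools, as the deposited value minus its mean over the pools (log2 scale), with low retene in the upper row and control in the lower row of each list, and control replicate 2 as a cross. Control replicate 2 is at the end of the range for the AHR battery, ribosomal proteins, the respiratory chain, crystallins and collagens. Above all 4 control pools lie 7 of 8 low retene pools for the AHR battery, and 6 of 8 for ribosomal proteins and for the respiratory chain.

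Collagens, the fibers of the extracellular matrix, leaned the other way. Of 57 genes 45 were negative with a median of −0.048, 7 were lower at an unadjusted p under 0.05 and 0 higher, beside 4.72% and 3.23% of all genes, and control replicate 2 had a list mean of 0.157 where the other control pools had −0.020 to 0.044. Without it the median was −0.029 and 2 genes were lower, beside 1.28% of all genes. The basement membrane gene col4a2 ranged from 321 to 376 normalized counts in low retene, against 393, 428, 377 and 391 in the control, with no overlap and a difference of −0.16. Among 39 listed red cell genes 35 were measured, with a median of 0.054 and 5 higher at an unadjusted p under 0.05, beside 3.23% of all genes. Without control replicate 2 the median was 0.031 and 2 were higher, beside 1.74%. The embryonic globin hbbe3 ranged from 358 to 636 in low retene (median 505) and had 278, 364, 509.7 and 266 in the control, a difference of 0.44 that was 0.47 without control replicate 2 (limma adjusted p = 0.621). Neighboring globin genes are close copies, and reads can be shared among them.

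Markers of other tissues showed small medians. Over the lists for heart, skeletal muscle, cartilage and bone, pigment cells, retina, neurons and glia, endothelium, leukocytes, and liver, gut and pancreas, the medians were −0.014, 0.023, −0.011, −0.007, −0.019, 0.011, 0.008, −0.006 and 0.002. With control replicate 2 left out, they were 0.008, 0.005, −0.025, −0.007, −0.032, −0.007, 0.001, −0.015 and −0.002, so that those of heart, of neurons and glia, and of liver, gut and pancreas changed sign. Yolk and lipid transport, skin and keratins, and hatching gland had 0.046, 0.035 and 0.054, and 0.003, −0.020 and −0.009 without control replicate 2. At an unadjusted p under 0.05, cartilage and bone had 1 higher and 5 lower of 46 genes, beside 3.23% and 4.72% of all genes. Endothelium had 0 and 4 of 47, and yolk and lipid transport 6 and 1 of 51. Without control replicate 2 these counts were 0 and 1, 0 and 1, and 2 and 0, beside 1.74% higher and 1.28% lower of all genes. Single members lay on both sides of their lists. Of the 47 neuron and glia genes 27 were positive, whereas slc1a3b, a glial glutamate transporter, ranged from 169.9 to 264 normalized counts in low retene and had 274, 411, 261 and 247 in the control, with a difference of −0.33 that was −0.20 without control replicate 2. Of the 28 skin genes 17 were positive, 2 higher and 2 lower at an unadjusted p under 0.05, beside 3.23% and 4.72% of all genes. Without control replicate 2, 12 were positive, with 0 higher and 0 lower. The type I keratin cyt1l ranged from 17226 to 21556 in low retene and had 16266, 14620.5, 16169 and 15245 in the control, with a difference of 0.22. The cornified envelope genes evpla and ppl, which encode plakins, differed by −0.21 and −0.20. None of the members named passed adjustment.

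Lists of stress and metabolic genes gave similar results. The Nrf2 and antioxidant list had a median of 0.028 over 45 measured genes, with 4 higher and 1 lower at an unadjusted p under 0.05, beside 3.23% and 4.72% of all genes. Without control replicate 2 the median was 0.017 and 4 were higher, beside 1.74%. Its leading members prdx4, prdx3 and gpx4a, which reduce peroxides, differed by 0.21, 0.18 and 0.25. The immediate early and stress list had 0.058 over 55 genes, and 0.018 without control replicate 2. fkbp5, a glucocorticoid responsive chaperone partner, ranged from 232 to 407 in low retene and had 268, 111, 228 and 285 in the control, with a difference of 0.40 that was 0.20 without control replicate 2. The circadian clock list was negative in 30 of 41 genes with a median of −0.036, and −0.022 without control replicate 2. Its gene rorb had 194 in control replicate 2, against 20.7, 21.6 and 13.8 in the other control pools and 11.1 to 27.2 in low retene. The light-responsive repressor cry1a ranged from 109.9 to 178 in low retene and had 83.8, 89.6, 135 and 143 in the control, with a difference of 0.26 and 0.20 without control replicate 2. Heat shock genes had a median of 0.051, replication and mitosis genes 0.015, hypoxia and glycolysis genes 0.024, retinoic acid genes 0.030, splicing factors 0.035, histones 0.046 and germ cell genes 0.019. With control replicate 2 left out, the same lists had 0.018, 0.018, −0.001, −0.011, 0.010, 0.004 and 0.013.

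Other xenobiotic enzymes had medians close to that of all genes on the deposited scale, which compresses members with few reads. The 69 cytochrome P450 genes outside the CYP1 family had a median of 0.015, with 2 higher and 0 lower at an unadjusted p under 0.05, beside 3.23% and 4.72% of all genes. The 18 glutathione transferases had 0.025, with 0 in either direction. The 30 UGT and SULT genes, which conjugate hydroxylated products, had −0.011, with 2 higher and 0 lower. Without control replicate 2 these medians were 0.010, 0.001 and −0.013. The 2 ribosomal RNA genes of the mitochondrial genome that were measured, mt-rnr1 and mt-rnr2, differed by 0.18 and 0.23, and by 0.14 and 0.11 without control replicate 2.

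Genes that respond at higher concentrations were then described at the low ones. The 189 genes higher at 50 than at 1.28 µM, a contrast without any of the 12 pools, had a median difference of 0.025 in low retene minus control, with 7 higher and 5 lower at an unadjusted p under 0.05, beside 3.23% and 4.72% of all genes. The 74 genes lower at 50 than at 1.28 µM had a median of 0.012. With control replicate 2 left out, these medians were 0.001 and −0.010, near the 0.00 of all genes. The group means of cyp1a in order of rising concentration, from 0 to 50 µM, were 26.1, 81.7, 197, 643, 1943, 4535, 9090.1 and 19827 normalized counts. For cyp1c1 they were 73.0, 86.0, 119, 218, 562, 1390.3, 2810.0 and 4863. For cyp1c2 they were 25.1, 28.5, 33.3, 40.3, 105, 212, 481 and 994, and for ahrra 11.6, 12.8, 12.9, 19.5, 23.7, 70.7, 161 and 362. lonrf1 had 129, 177, 206, 235, 233.5, 312, 341 and 426. The group means of cyp1a, cyp1c1, cyp1c2 and ahrra at 0.205 and 0.512 µM thus lay between those of the control and of 1.28 µM, and all concentrations share the same control pools.

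**Figure D5:**
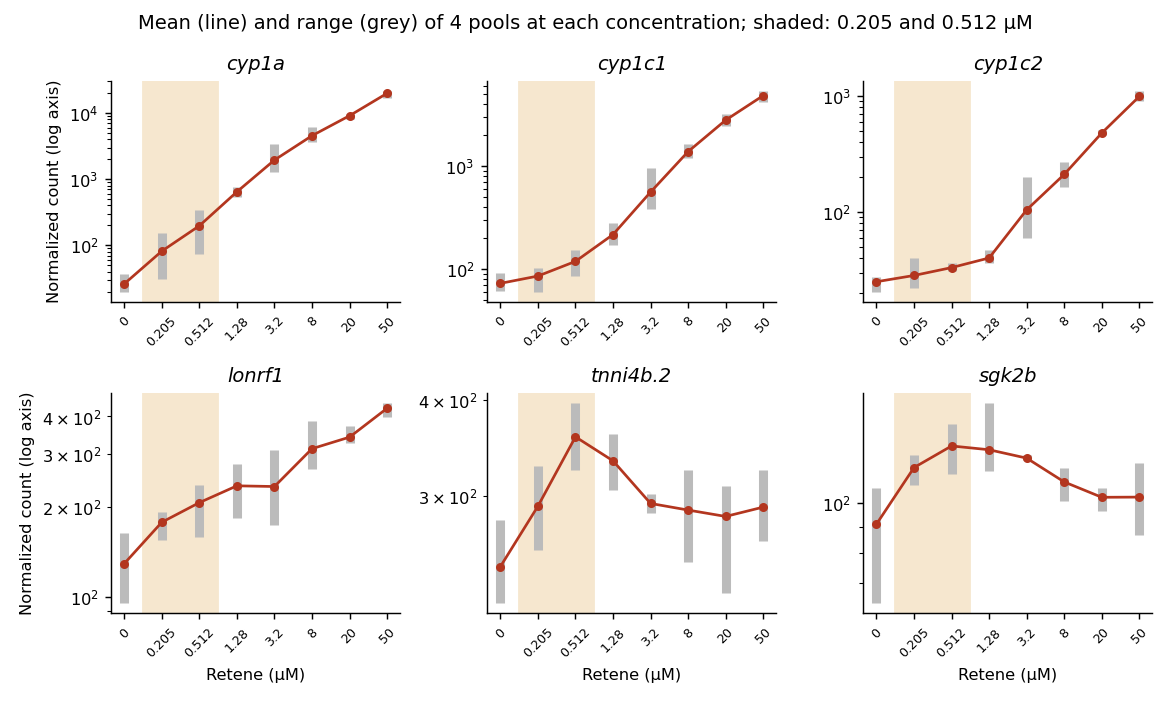
Normalized counts of 6 genes at each retene concentration on log axes, with the mean of 4 pools as the line and their range as the grey bar, and 0.205 and 0.512 µM shaded. cyp1a, cyp1c1 and cyp1c2 have their highest mean at 50 µM, whereas the highest mean of tnni4b.2 and of sgk2b is at 0.512 µM.

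Some genes with a small p in low retene had means that did not rise or fall steadily with concentration. tnni4b.2 averaged 243, 291, 358, 333.5, 294, 288, 283 and 290.5 normalized counts over the same order of concentrations, and sgk2b averaged 91.1, 117, 129, 127, 123, 110.1, 103 and 103. The unnamed noncoding RNA averaged 12.6 in the control and between 20.4 and 24.0 at every retene concentration. For arnt the control mean was 35.6, and the means at all 7 retene concentrations lay between 10.4 and 17.0. Single arnt pools reached 31.6 at 0.205 µM and 34.4 at 8 µM, inside the control range of 22.7 to 61.0, whose top is control replicate 2. nfxl1 averaged 121 in the control and 77.9 to 95.8 under retene. For the noncoding RNA, arnt and nfxl1 the control mean thus lay outside the means of all exposed groups. The same held for tnni4b.2 and sgk2b, with their lowest mean in the control. Likewise cdpf1 averaged 60.4 in the control and 70.5 to 90.2 under retene. For rab11fip5a these means were 125 and 68.0 to 92.1, with the lowest at 50 µM. For rragcb these means were 70.4 and 43.0 to 58.0. The control means of tex47, vps29, rnf13 and naalad2 also lay outside those of all exposed groups. In these genes a difference of the 4 control pools cannot be told apart from a response present at 0.205 µM. By contrast, the ahr2 control mean of 663 lay within its exposed means of 563 to 1100.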

How the data were processed

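Poly(A)-selected RNA from pools of whole larvae was sequenced. According to the study's methods and submitters' notes, the authors mapped reads with STAR on GRCz11, assigned them to genes with HTSeq at a minimum alignment quality of 10, removed genes with 0 reads in at least 8 of 32 pools and normalized with DESeq2 (versions not given in the sources used here). The authors deposited log2-scale values, those of DESeq2's variance-stabilizing transformation, which compress genes with few reads. Reversing the transformation gave whole reads for 100.0% of values (tolerance 0.01 reads, largest deviation 0.000614) and 7957827 to 8656870 reads on genes in the 12 pools compared. Count models were not run. No batch labels are given, and nothing says how the pools were drawn from clutches or plates, so p-values measure the spread between pools.

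limma 3.58.1 in R 4.3.3 was fitted to the deposited values of 22686 genes with 8 group means over all 32 pools, a trended empirical Bayes prior, and p-values adjusted over all genes by Benjamini-Hochberg (threshold 0.05). Low retene is the mean of the 0.205 and 0.512 µM group means. The fit was tested on simulated counts that had no pool standing apart, so this does not cover control replicate 2. Exact two-sided permutation tests of single genes are unadjusted over the 26 genes tested. Normalized counts are recovered reads over the size factor of the pool. Named genes are the 12 with the smallest p (6 higher, 6 lower), AHR-related genes named by the study, up to 3 leading members of each of 35 lists, and examples chosen after their values were seen. Members and lists were chosen with earlier results of these data known. Gene names came from RefSeq GRCz12tu, to which 21030 genes were matched, so no coordinates are given. The study's lonrf1l is lonrf1 there.

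Alternatives were log2(normalized count + 0.5), a minimum mean normalized count of 10, quantile normalization, the 12 pools alone, no trend, pool weights, a replicate block, an adjusted p under 0.01, each pool left out, and, chosen after seeing the data, voom and pool weights on the 12 pools. Python 3.11.15, NumPy 2.4.6, pandas 2.3.3, SciPy 1.17.1 and matplotlib 3.10.9 were used.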

Additional observations from a re-analysis of the deposited data

Results flagged for a closer look

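In groups of 4 or 8 pools, a pool was looked up when it lay far from its nearest neighbor relative to the range of its group, a rule that chance meets in about 1 of 20 groups. Among 108 groups examined (26 genes and 1 principal component, in low retene, each concentration and the control), 6 met it. Control replicate 2 met it on the first principal component of the 12 pools, at −31.76. mark1 met it in replicate 3 of 0.205 µM, with 9.44 normalized counts, both within that concentration and within low retene, and in replicate 4 of 0.512 µM, with 27.8 where the other 3 pools had 35.0 to 36.2. The unnamed gene 108180184 met it in control replicate 4, with 17.8 normalized counts, just under the lowest low retene pool at 18.1. foxq1a met it in control replicate 3, with 76.2 where the other control pools had 50.5 to 52.3. No named gene had all pools of one concentration above and all pools of the other below the control.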

How the results depend on the processing

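Low retene minus control kept 0 called genes under the alternatives except on the scale of log2(normalized count + 0.5), with 1 (cyp1a). For 0.512 µM minus control the count of 0 became 1 with log2(normalized count + 0.5) and with quantile normalization (cyp1a each time). It became 2 with pool weights (cyp1a and tnni4b.2), and with pools left out it ranged from 0 to 2. For 0.205 µM minus control it ranged from 0 to 1 with pools left out, and 0.512 minus 0.205 µM stayed at 0 throughout. Replicate numbers are shared between groups in the labels. Deviations from the group mean correlated at r from −0.33 to 0.13 between same-numbered pools. Between differently numbered pools r ran from −0.28 to 0.33, and most pools did not correlate best with their own number. Whether same-numbered pools shared a clutch or plate is not given by the labels and was not tested. With the replicate block 0.512 µM had 2 calls (lonrf1 and cyp1a), and low retene had 0 with a smallest adjusted p of 0.0646 (lonrf1). Of 623 recomputed values of 26 named genes, 607 kept their direction and side of the threshold. cyp1a passed it under 1 alternative, and 15 changed sign, all with 1 pool left out. With 1 pool left out, ahrrb ranged from −0.0184 to 0.0910, tiparp from −0.0219 to 0.129, wfikkn1 from −0.0349 to 0.0192 and fgf7 from −0.0528 to 0.0432. Genes without overlap numbered 133 with a minimum mean of 10 and 184 to 532 with 1 pool left out. Depth limits the genes with few normalized counts, and 4 control pools with 1 that stands apart limit every contrast with the control.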
